A study of Oryzias latipes with 5 samples.

Results

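Glycosaminoglycans are long sugar chains that, attached to core proteins, fill the cartilage matrix with water. Chondroitin, dermatan and heparan sulfate chains start from a linker of sugars on a serine of the core protein, are extended in the Golgi from sugar nucleotides, and are then sulfated with the sulfate donor PAPS. Sugar nucleotides and PAPS are made mainly in the cytosol, so transporters of the solute carrier family 35 (slc35) carry them, or other nucleotides, into the Golgi or the endoplasmic reticulum. Loss of several of these genes in people, mice or zebrafish disturbs cartilage.

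The genes described here were chosen by symbol from the deposited table, with 92 of 25689 genes matching. They comprise 26 slc35 transporters and 66 others, which are enzymes of glycosaminoglycan synthesis and sulfation plus the sulfate transporter slc26a2. Messenger RNA was sequenced from cells expressing the reporter col10a1:nlGFP, a nuclear green fluorescent protein under col10a1 control, in Cab-strain medaka (Oryzias latipes) at 10 days post fertilization, raised at 30 °C. The 3 wild-type libraries came from siblings of genotype col10a1wt/wt and the 2 mutant libraries from fish of genotype col10a1wt/mut, which keep 1 normal allele; every fish was homozygous for the reporter (col10a1:nlGFP+/+). The series calls them biological replicates, but how many fish went into each library is not stated, and p-values measure the spread between these libraries. Values are FPKM, fragment numbers that the authors divided by gene length and by a measure of depth. Differences are mutant minus wild type on the log2(FPKM + 1) scale. Where 3 values stand against 2, the former are wild-type libraries 1 to 3 and the latter mutant libraries 1 and 2.

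Reads on genes, recovered from the FPKM and gene lengths, numbered 24791662 to 28012092 per library. Mutant library 2 stood apart, with reads on 12334 genes against 19397 to 21134 in the others, and with Pearson's r of 0.80 to 0.82 across tested genes to the other libraries, which reached 0.95 to 0.97 among themselves. Results are therefore given with both mutant libraries side by side. The labels name the cells chondrocytes and osteoblast progenitors. Summed levels of 7 matched osteoblast progenitor markers were 18890.5 to 21675 FPKM for the wild type, while mutant libraries 1 and 2 had 16052.5 and 15842. Both mutants lay below every wild-type library for 3 of them (42.9%) and above for 1 (14.3%), beside 26.0% and 8.33% of all tested genes. sparc was at 6937, 6693 and 6969 FPKM against 4200 and 3390, and col10a1a at 5384, 7272 and 6781 against 4055 and 4135. phospho1 went the other way, at 4894, 5251 and 5369 FPKM against 6084 and 6243. The sums are mostly these 3 genes, and col10a1 is also the gene named in the genotype and the reporter. The groups overlapped for 3 further markers, col10a1b, sp7 and spp1. sp7 was at 193, 279 and 262 FPKM against 212 and 251, and spp1 at 767, 993 and 874 against 919 and 935. For 7 matched chondrocyte markers the sums were 249 to 329 FPKM in wild-type and 106 and 143 FPKM in mutant libraries, and for 6 of the 7 (85.7%) both mutants lay below the lowest wild-type value, beside 26.0% of all tested genes. None of these markers was at 0. For 7 gut, liver and pancreas markers the sums were 34354 to 41786 FPKM for the wild type, while mutant library 1 had 55721 and mutant library 2 had 17687, where cpb1 and CPA1 were at 0. These sums are mostly apoa1b, at 49418 and 15232 FPKM in the mutants. ins, the insulin gene of the same list, was at 0.369, 0.367 and 0.315 FPKM against 9.80 and 10.3. For 4 macrophage markers they were 19.1 to 25.5, 19.9 and 6.62 FPKM, and for 3 neuron markers 28.7 to 42.7, 40.0 and 12.3 FPKM. The macrophage sum of mutant library 2 was almost all cd74a, at 5.55, 4.63 and 3.62 FPKM against 6.0 and 6.28. Both mutants lay below every wild-type library for 2 of 4 macrophage markers (50%) and above for 1 (25%). Over all tested genes these shares were 26.0% and 8.33%. The lower 2 were coro1a, at 7.83, 11.9 and 8.02 FPKM against 6.70 and 0.337, and lcp1, at 8.92, 7.58 and 6.95 against 6.63 and 0. MPEG1 overlapped between the groups and was at 0 in mutant library 2. The neuron sum of mutant library 2 was all snap25a, at 15.4, 16.0 and 10.9 FPKM against 15.4 and 12.3, while elavl3 and stmn2b were at 0 there. For 5 epidermis markers the sums were 1492, 1556 and 693 FPKM against 1192 and 577. krt5 of that list was at 992, 958 and 219 FPKM against 732 and 207, and the others did not follow it. krt4 was lower in both mutants, at 39.5, 62.3 and 65.9 FPKM against 36.0 and 14.4. It was 1 of 4 tested epidermis markers (25%), beside 26.0% of all tested genes. krt8 was at 307, 416 and 320 FPKM against 307 and 241, and epcam at 154, 120 and 87.7 against 117 and 114, both overlapping. The skeletal muscle marker mylpfa was at 238, 211 and 174 FPKM against 208 and 192, and 2 blood markers summed to at most 1.84 FPKM. The part of these other cells in the results below was not tested, and in such mixed samples fewer cells of a type and less RNA per cell cannot be told apart.

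One transporter stood out in both mutant libraries. slc35b1, a nucleotide transporter of the endoplasmic reticulum membrane in mammals, had wild-type values of 22.8, 21.7 and 26.5 FPKM and mutant values of 57.6 and 63.2. Both mutants lay above every wild-type library, with means of 23.7 ± 2.49 FPKM (SD, n = 3) and 60.4 ± 3.97 (SD, n = 2), a ratio of 2.55. The log2 difference was 1.32 (SE 0.24, 95% interval 0.76 to 1.88), the unadjusted p from limma was 0.00074 and the adjusted p over all 13680 tested genes was 0.399, so the difference did not pass. A two-sided exact permutation test gave 0.1, the smallest p that 3 against 2 libraries allow. The gene (ENSORLG00000002514) lies on the plus strand of chromosome 8, from 4193453 to 4199817 in the coordinates of the deposited table, whose build is not stated in any source at hand. Its values rest on 1328 to 1801 reads in wild-type and on 3241 and 4882 reads in mutant libraries. Against the wild-type mean mutant library 1 differed by 1.25 and mutant library 2 by 1.38 on the log2 scale. With mutant library 1 as the only mutant the limma adjusted p was 0.282, in a fit that called 0.0149% of all tested genes higher and none lower. With mutant library 2 as the only mutant it was 0.00209, a fit in which 14.8% of all tested genes were called higher and 39.5% lower.

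Across all members no difference passed an adjusted p of 0.05. Of 92 members, 68 reached the filter of 1 FPKM in no fewer than 2 libraries, namely 22 transporters and 46 others. Called were 0 of 68 members, where 0.00731% of all tested genes were called. Many genes share the limma adjusted p of 0.399, and their unadjusted p differ widely. Examples are slc35b1 at an unadjusted limma p of 0.00074 and slc26a2 at 0.103. At an unadjusted p under 0.05, slc35b1 was higher and chpf2, csgalnact1a, chst7 and HS3ST1 were lower, 1.47% and 5.88% of tested members beside 3.21% and 7.60% of all tested genes. For 2 members, slc35b1 and b3gat3, both mutant values exceeded all wild-type ones, beside 8.33% of all tested genes. They lay below every wild-type library for 16 members (23.5%), beside 26.0% of all tested genes. These were 3 of 22 transporters (13.6%) and 13 of 46 others (28.3%). The median log2 difference was -0.08 for the transporters and -0.29 for the enzymes with slc26a2, and -0.31 for all tested genes. The lower share of all members, and that of the enzymes with slc26a2, thus lay near that of the table as a whole. The lower share of the transporters lay below it, as did the higher share of members.

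**Figure D1:**
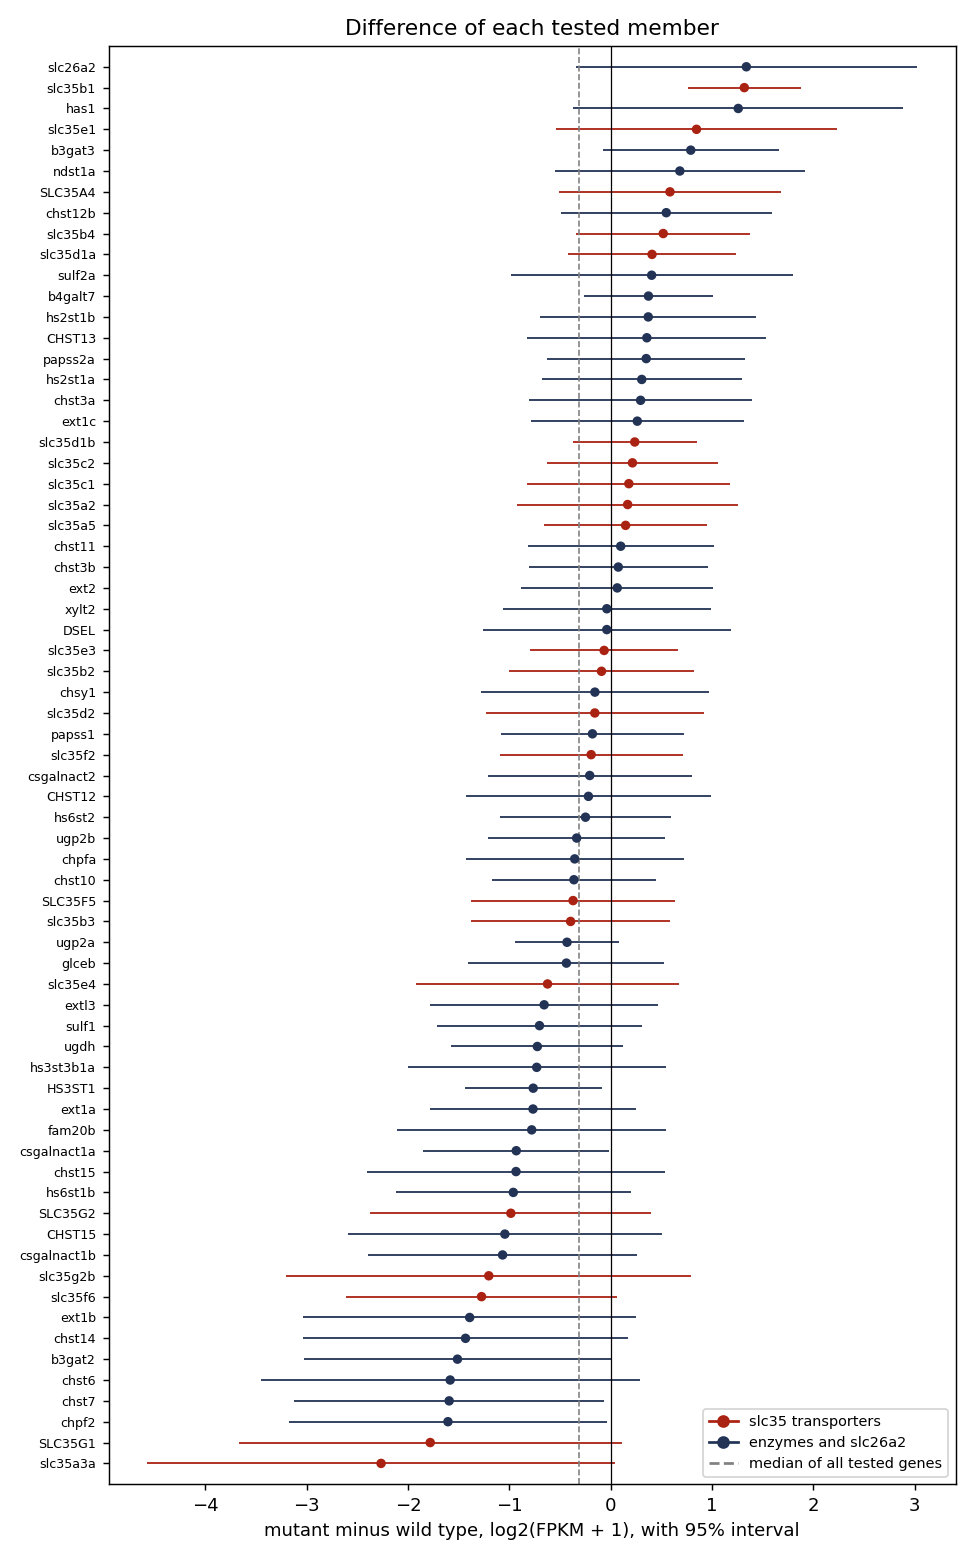
Difference between mutant and wild-type libraries for the 68 tested members, sorted; points are limma estimates on the log2(FPKM + 1) scale, lines are 95% intervals, red marks slc35 transporters and the dashed line the median of all tested genes. slc35b1, at 1.32, has a much narrower interval than slc26a2, at 1.34, or has1, at 1.26.

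The libraries differed in how far members lay from the wild type. In mutant library 1, 58 of 68 tested members lay within 0.5 of the wild-type mean on the log2(FPKM + 1) scale, and slc35b1 was the only one beyond 1, a distance passed by 2.85% of all tested genes in that library. In mutant library 2, 18 members lay within 0.5 and 32 lay beyond 1, a distance that 48.7% of all tested genes passed. Whatever the other mutant library showed, mutant library 1 was above every wild-type library for 4 members, chsy1, b3gat3, slc35b1 and slc35g2b. This compares with 16.0% of all tested genes. It was below every one for 25 members, beside 40.6%. Counted in the same way, mutant library 2 was above for 26, beside 30.7%, and below for 33, beside 55.4%.

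**Figure D2:**
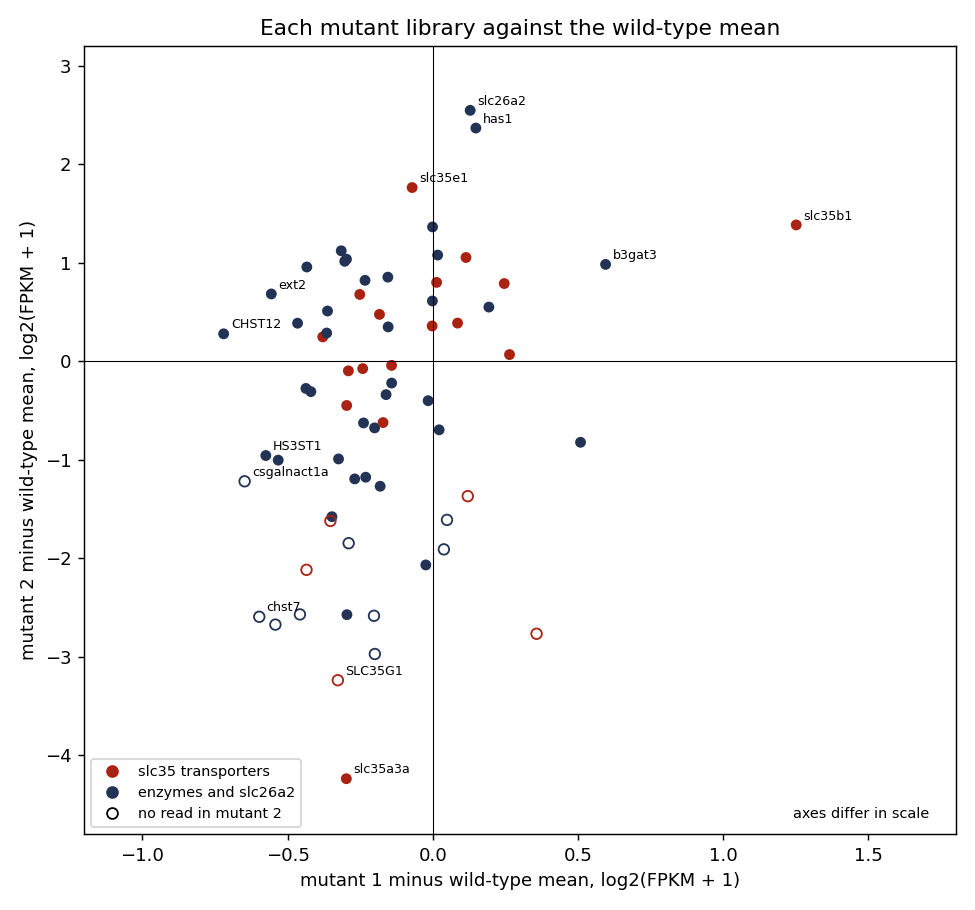
Each tested member's log2(FPKM + 1) in mutant library 1 (horizontal) and mutant library 2 (vertical) minus the wild-type mean; both axes share that mean, and they differ in scale. Open circles are the 14 members with no read in mutant library 2. slc35b1 lies at 1.25 and 1.38, while slc35a3a lies at -0.30 and -4.24.

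Of the 68 tested members, 14 had no read in mutant library 2, beside 23.6% of all tested genes. In the other libraries these 14 had 36 reads or more each, at 0.485 to 11.8 FPKM, and 3 reads in mutant library 2 correspond to 0.0180 to 0.0956 FPKM, a limit for counting error alone. SLC35G1 and chst6 had no read there although 5 FPKM was reached in each of the 4 remaining libraries, 2 of 30 members at that level. The matching figure for all genes was 374 of 5977. The opposite also occurred. In mutant library 2, slc26a2, slc35e1, has1 and ndst3 exceeded 4 times their level in every other library, by ratios of 6.39, 5.14, 5.08 and 21.6 to the next library. ndst3 was under the filter, and the others are 3 of 68 tested members (4.41%), beside 1.44% of all tested genes. Outside mutant library 2, has1 reached 1 FPKM only in wild-type library 2. It thus passed the filter through the library where it is high, and its place in this count depends on that.

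The transporters formed a graded series of levels. In wild-type libraries slc35e3, a member without an assigned substrate, and slc35d1b, described as a transporter of UDP-glucuronic acid and UDP-N-acetylgalactosamine, led with means of 36.2 ± 7.89 and 35.4 ± 6.26 FPKM (SD, n = 3). The UDP-N-acetylglucosamine transporter slc35a3a followed with 24.0 ± 5.61 and slc35b1 with 23.7 ± 2.49. Of 25 neighbouring pairs in this order, 23 had overlapping wild-type ranges. The exceptions were the steps from slc35d1b to slc35a3a and from slc35e1 to slc35f3b. Neighbours were set by these same means, which makes overlap likely, so it does not show that they did not differ. In the mutants slc35b1 had the highest mean of all transporters.

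**Figure D3:**
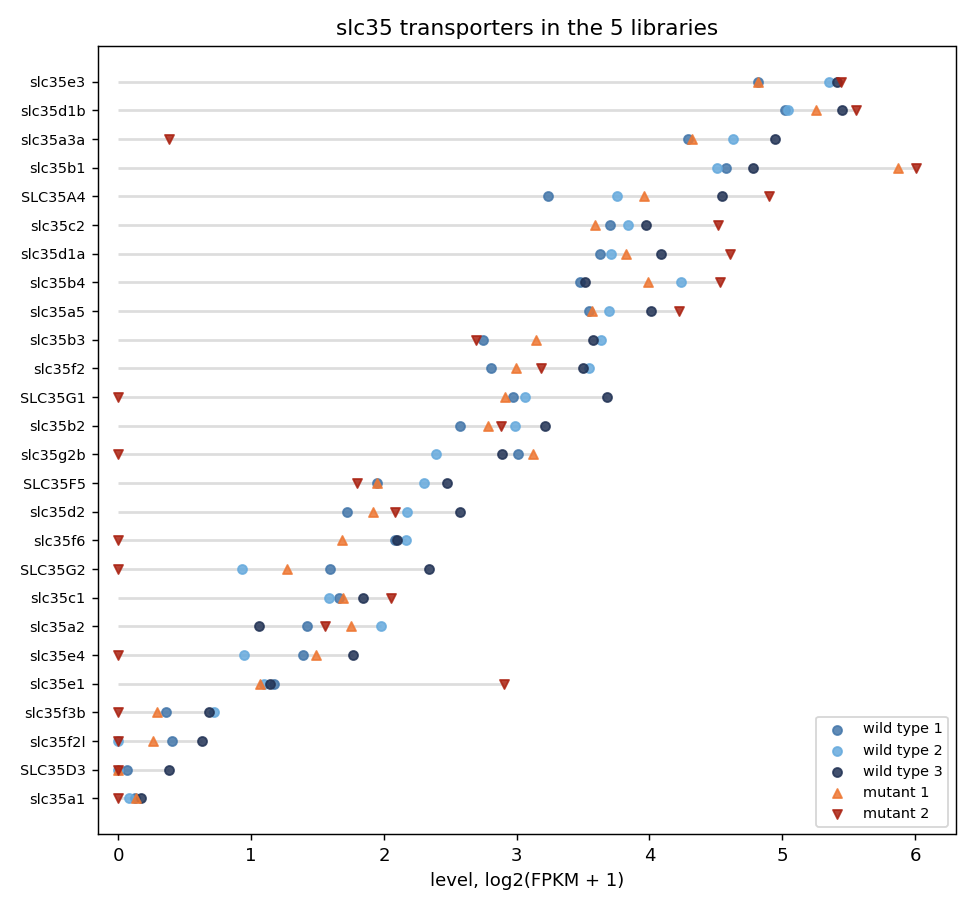
Levels of the 26 slc35 transporters as log2(FPKM + 1) in each library, sorted by wild-type mean; blue circles are wild-type libraries, triangles mutant libraries. slc35b1 has both mutants, at 57.6 and 63.2 FPKM, to the right of all wild-type libraries, at 21.7 to 26.5 FPKM.

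Transporters of the sugar nucleotides used for chondroitin and heparan chains were not separated between the genotypes. slc35d1b, whose human counterpart is needed for cartilage chondroitin sulfate, was at 31.5, 32.0 and 42.6 FPKM in the wild type, and the mutants had 37.2 and 46.1. The groups overlapped, and the log2 difference stood at 0.24 (SE 0.26, limma adjusted p = 0.619). Its copy slc35d1a was at 11.4, 12.1 and 16.0 FPKM against 13.1 and 23.4, differing by 0.41 on the log2 scale (SE 0.35). The share of slc35d1b in their summed FPKM was similar in all libraries but mutant library 2. It was 73.4%, 72.7% and 72.7% in wild-type libraries and 73.9% and 66.3% in the mutants. slc35b4, described as a transporter of UDP-xylose and UDP-N-acetylglucosamine, was at 10.1, 17.8 and 10.4 FPKM against 14.9 and 22.1. Only mutant library 2 lay outside the wild-type range. slc35d2, a UDP-N-acetylglucosamine transporter, was at 2.29, 3.52 and 4.95 FPKM against 2.77 and 3.23, and slc35a2, the UDP-galactose transporter, at 1.67, 2.95 and 1.09 FPKM against 2.37 and 1.94.

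slc35a3a, whose bovine counterpart is required for normal vertebrae, also overlapped between the genotypes, but its mutant libraries lay far apart. It had 18.6, 23.7 and 29.8 FPKM in the wild type, 19.0 in the first mutant library and 0.306 in the second. Mutant library 1 lay within the wild-type range and mutant library 2 rested on 9 reads, against 408 to 772 elsewhere. The log2 difference of -2.27 (SE 0.99, limma adjusted p = 0.399) was therefore that of 1 library, and without mutant library 2 it was -0.30. A gene without a symbol described as a UDP-N-acetylglucosamine transporter stood at 2.23, 2.32 and 0.962 FPKM against 1.11 and 6.63. How reads shared by similar genes were counted is not stated, so levels of close copies are uncertain.

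The PAPS transporters slc35b2 and slc35b3, which bring the sulfate donor into the Golgi, gave overlapping groups. slc35b2 was at 4.95, 6.92 and 8.28 FPKM against 5.88 and 6.37, both mutants within the wild-type range, and the log2 difference stood at -0.09 (SE 0.39, 95% interval -1.0 to 0.82). slc35b3 was at 5.72, 11.4 and 10.9 FPKM against 7.86 and 5.48, differing by -0.40 on the log2 scale (SE 0.42). slc35c1, the GDP-fucose transporter, was at 2.16, 2.0 and 2.58 FPKM against 2.23 and 3.15, and slc35c2, a related Golgi protein, at 12, 13.3 and 14.7 FPKM against 11 and 21.9. slc35a1, the CMP-sialic acid transporter, stayed at or under 0.126 FPKM in every library.

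Other members have no sugar nucleotide assigned with certainty. SLC35A4 was at 8.41, 12.5 and 22.3 FPKM against 14.6 and 28.8, and slc35a5 at 10.7, 12 and 15.1 FPKM against 10.8 and 17.7. slc35e1 had 1.26, 1.14 and 1.20 FPKM in the wild type, 1.1 in the first mutant library and 6.47 in the second. All 3 slc35g members, SLC35G1, slc35g2b and SLC35G2, had no read in mutant library 2. In mutant library 1, SLC35G1 was at 6.52 FPKM beside 6.83 to 11.8 in wild-type libraries, and slc35g2b was at 7.71, above their 4.26 to 7.07. slc35f6 was at 3.24, 3.49 and 3.29 FPKM against 2.21 and 0, both mutants lower, and the log2 difference stood at -1.28 (SE 0.57, limma adjusted p = 0.399). SLC35F5 was at 2.86, 3.94 and 4.56 FPKM against 2.85 and 2.47, likewise lower in both by a small margin, and the sign of its difference of -0.37 turned after quantile normalization (0.0114). slc35f2 was at 5.99, 10.7 and 10.3 FPKM against 6.95 and 8.09.

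Of the enzymes that supply building blocks, ugp2a, which makes UDP-glucose, was the most abundant of all members. It had wild-type values of 243, 282 and 279 FPKM and mutant values of 227 and 173 (chromosome 1, 8718316 to 8728742, plus strand). Both mutants lay below every wild-type library, and the log2 difference stood at -0.43 (SE 0.22, limma adjusted p = 0.399). ugdh, which oxidises UDP-glucose to UDP-glucuronic acid and is needed for cartilage in zebrafish, was at 27.1, 24.5 and 28.6 FPKM against 23.4 and 10.5 (chromosome 1, 13035298 to 13045546, minus strand). Both mutants were again lower, mutant library 1 by little, and the difference was -0.72 (SE 0.36, limma adjusted p = 0.399). The second copy ugp2b was at 12.2, 15 and 21.4 FPKM against 16.0 and 9.36, and ugp2a took 92.9% to 95.2% of their summed FPKM in every library.

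For sulfate supply, the PAPS synthase papss1 was at 6.18, 11.6 and 8.11 FPKM against 7.49 and 7.04. papss2a, another PAPS synthase, was at 6.32, 8.25 and 9.02 FPKM against 6.90 and 14.9. slc26a2, the sulfate transporter whose human counterpart is mutated in diastrophic dysplasia, was at 1.03, 2.02 and 1.21 FPKM against 1.61 and 12.9. Mutant library 1 lay within the wild-type range, and the 1413 reads of mutant library 2 compare with 85 to 188 elsewhere. Its log2 difference of 1.34 (SE 0.72, 95% interval -0.35 to 3.02) became 0.13 without mutant library 2.

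Linker enzymes included the second member higher in both mutants. b3gat3, which adds the glucuronic acid that completes the linker, had wild-type values of 5.37, 5.83 and 8.53 FPKM and mutant values of 10.3 and 13.7 (chromosome 18, 12981093 to 12987766, minus strand). Both mutants lay above every wild-type library, and the log2 difference was 0.79 (SE 0.37, limma adjusted p = 0.399, 95% interval -0.08 to 1.66). With mutant library 1 as the only mutant the difference was 0.60 and the limma adjusted p 0.782. With mutant library 2 as the only mutant they were 0.98 and 0.0302, in the fit that called 14.8% of all tested genes higher and 39.5% lower. b4galt7, which adds the first galactose, was the most abundant linker enzyme at 34.7, 37.6 and 51.2 FPKM against 46.6 and 59.9, differing by 0.37 on the log2 scale (SE 0.27) with mutant library 1 inside the wild-type range. fam20b, the xylose kinase, was at 2.23, 2.51 and 1.51 FPKM against 2.16 and 0. xylt2, a xylosyltransferase that starts the chain, was at 1.69, 2.14 and 1.67 FPKM against 1.19 and 2.44. xylt1 did not exceed 0.884 FPKM, whereas a gene without a symbol described as xylosyltransferase 1 was at 11.4, 22.3 and 14.8 FPKM against 11.7 and 20.2. The gene named b3galt6, annotated as a pseudogene, had no read.

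Chondroitin chain enzymes had 7 tested members, and all 7 had negative log2 differences, against 6 of 7 after median-of-ratios scaling and 3 of 7 after quantile normalization. Over all tested genes 65.9% had negative differences. For 3 of the 7 (42.9%) both mutants lay below every wild-type library, beside 26.0% of all tested genes. chpf2, a chondroitin polymerising factor, was at 3.93, 5.73 and 6.81 FPKM against 3.38 and 0, differing by -1.61 on the log2 scale (SE 0.67, limma adjusted p = 0.399). csgalnact1a, a copy of the enzyme that adds the first N-acetylgalactosamine, was at 1.0, 1.38 and 1.64 FPKM against 0.485 and 0, and csgalnact1b at 3.64, 2.08 and 2.25 against 1.94 and 0. In mutant library 1 these 3 differed from the wild-type mean by -0.54, -0.65 and -0.29 on the log2(FPKM + 1) scale. chsy1, a chondroitin synthase, went against them in that library, at 12.5 FPKM above 6.39, 9.81 and 9.72 in wild-type libraries, but was at 4.37 in mutant library 2. csgalnact2 was at 3.70, 6.40 and 4.69 FPKM against 4.76 and 3.42, and chpfa at 2.43, 3.75 and 1.67 FPKM against 1.60 and 1.90. DSEL, a dermatan sulfate epimerase-like gene, was at 0.837, 3.01 and 1.44 FPKM against 0.898 and 2.42, and dse, the epimerase, lay under the filter.

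Of 10 chondroitin sulfotransferases, all tested, 5 had positive and 5 negative log2 differences. chst3b, a 6-O-sulfotransferase whose human counterpart is mutated in a skeletal dysplasia, was the highest of them at 21.5, 38.2 and 37.9 FPKM against 24.3 and 45.3, with overlapping groups and a log2 difference of 0.07 (SE 0.38). Its copy chst3a was at 5.29, 7.44 and 4.14 FPKM against 4.52 and 10.5. chst7, another 6-O-sulfotransferase, was at 3.51, 5.34 and 6.69 FPKM against 2.99 and 0, both mutants lower, and the log2 difference stood at -1.60 (SE 0.65, limma adjusted p = 0.399). The 4-O-sulfotransferase chst11, required for cartilage in mice, was at 5.72, 9.62 and 7.04 FPKM against 6.47 and 9.58, both mutants within the wild-type range. The 4-O-sulfotransferase chst12b had 6.35 FPKM in mutant library 1, within its wild-type range, and CHST13 had 3.32, below its own. Both exceeded their ranges in mutant library 2, with 14.3 and 9.78 FPKM. CHST12 was at 2.99, 2.86 and 5.67 FPKM against 1.84 and 4.68. chst14, the dermatan 4-O-sulfotransferase, was at 5.66, 7.63 and 10.7 FPKM against 6.14 and 0.473. The copies chst15 and CHST15, which add a second sulfate to N-acetylgalactosamine, were at 2.86 and 3.2 FPKM in mutant library 1, within the wild-type range, and at 0 and 0.0183 in mutant library 2.

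**Figure D4:**
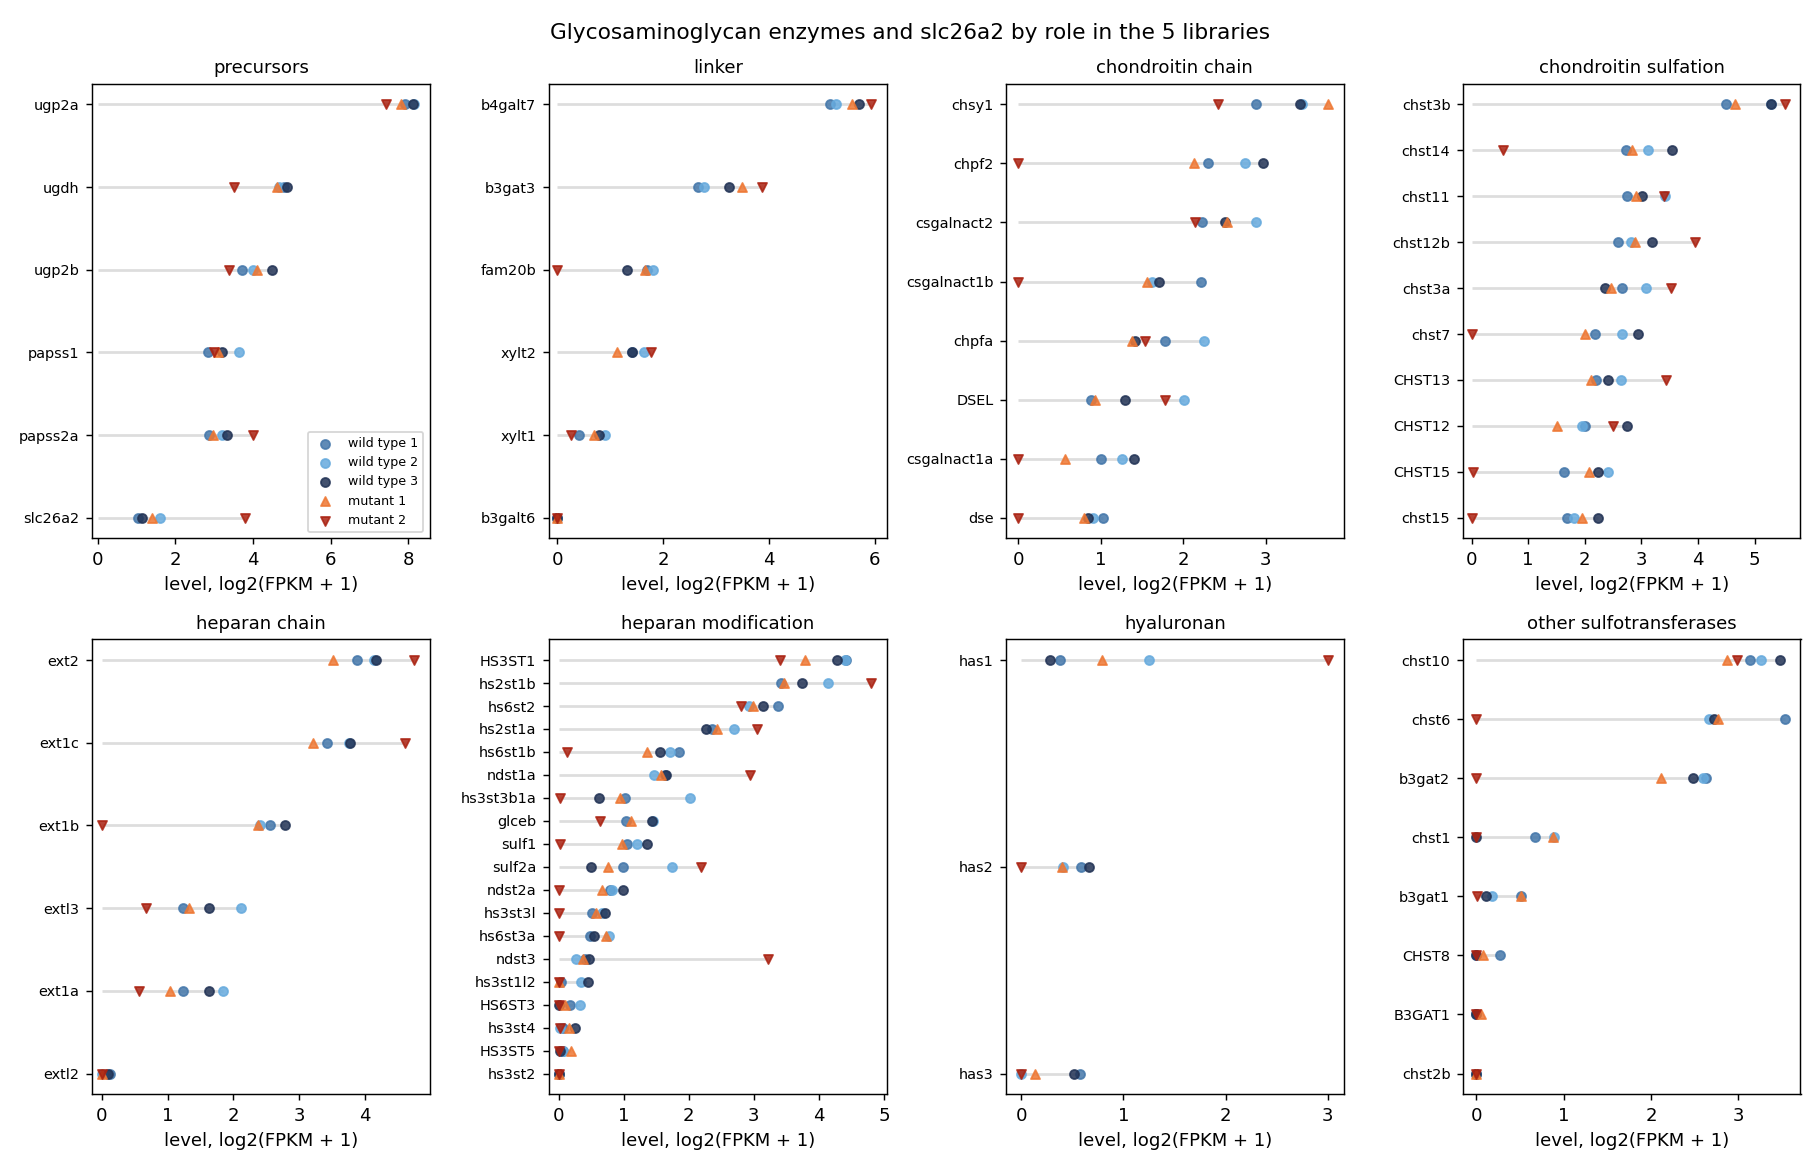
Levels of the 66 other members, enzymes and slc26a2, by role as log2(FPKM + 1) in each library, sorted by wild-type mean within a role; blue circles are wild-type libraries, triangles mutant libraries, and each panel has its own horizontal scale. Downward triangles at 0 are members with no read in mutant library 2, while ugp2a, ugdh, HS3ST1, chst10, ext1a, hs6st1b and sulf1 are among those with both mutants below all wild-type libraries and reads in each.

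The heparan sulfate polymerase was represented by ext2 and 3 copies of ext1, genes whose loss in people causes cartilage-capped bone outgrowths. ext2 was at 13.8, 16.7 and 17.0 FPKM against 10.4 and 25.9, with 1 mutant below and 1 above every wild-type library. ext1c behaved alike at 9.71, 12.6 and 12.7 FPKM against 8.32 and 23.4. The lower copies ext1b and ext1a were below every wild-type library in both mutants, ext1b at 4.88, 4.30 and 5.91 FPKM against 4.21 and 0, and ext1a at 1.36, 2.60 and 2.09 against 1.06 and 0.483. Their log2 differences were -1.39 (SE 0.70) and -0.77 (SE 0.43). In mutant library 1 the shares of ext1a, ext1b and ext1c in their summed FPKM were 7.77%, 31.0% and 61.2%, beside wild-type means of 10.7%, 27.1% and 62.3%. In mutant library 2 ext1c took 98.0%. extl3, which helps to start the heparan chain, was at 1.34, 3.34 and 2.08 FPKM against 1.52 and 0.586.

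Among enzymes that modify heparan sulfate, HS3ST1 was lower in both mutants. This 3-O-sulfotransferase had wild-type values of 20.4, 20.1 and 18.3 FPKM and mutant values of 12.8 and 9.62 (chromosome 10, 7060944 to 7062220, plus strand). Both mutants lay below every wild-type library, 19.6 ± 1.15 (SD, n = 3) beside 11.2 ± 2.28 (SD, n = 2) in mutants, and the log2 difference was -0.77 (SE 0.29, limma unadjusted p = 0.0316 and adjusted p = 0.399). A two-sided exact permutation test gave 0.1. The gene model is 438 bp long and its values rest on 141 to 258 reads. A gene without a symbol described as 3-O-sulfotransferase 3B1 was at 15.4, 16.1 and 27.6 FPKM against 10.9 and 14.3, and hs3st3b1a was at 1.03, 3.04 and 0.529 against 0.928 and 0.0150.

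The 2-O-sulfotransferase hs2st1b was at 9.68, 16.6 and 12.3 FPKM against 10.1 and 26.9. Its copy hs2st1a was at 4.09, 5.45 and 3.83 FPKM against 4.41 and 7.27. For both, mutant library 1 lay within the wild-type range and mutant library 2 above it. The 6-O-sulfotransferase hs6st2 was at 9.39, 6.63 and 7.78 FPKM against 6.93 and 6.01, and hs6st1b at 2.61, 2.27 and 1.94 against 1.56 and 0.0926, differing by -0.96 on the log2 scale (SE 0.50). ndst1a, an N-deacetylase and N-sulfotransferase, was at 1.99 ± 0.206 FPKM (SD, n = 3) in wild-type libraries, while the mutants had 1.99 and 6.68. The related ndst3 was at 0.203 to 0.385 FPKM in 4 libraries and at 8.30, from 1445 reads, in mutant library 2, and with 1 library above 1 FPKM it was not tested. The epimerase glceb was at 1.05, 1.73 and 1.71 FPKM against 1.15 and 0.548. Of the 6-O-endosulfatases, sulf1 was at 1.06, 1.30 and 1.55 FPKM against 0.954 and 0.0144, and sulf2a at 0.977, 2.33 and 0.410 against 0.689 and 3.57. sulf2a passed the filter only through wild-type library 2 and mutant library 2.

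Hyaluronan, which is made at the cell surface without a core protein, had 1 tested synthase. has1 had 0.298, 1.38 and 0.218 FPKM in the wild type, 0.725 in the first mutant library and 7.03 in the second. The first mutant lay within the wild-type range, and the log2 difference of 1.26 (SE 0.70, limma adjusted p = 0.401) rests on the second. has1 also passed the filter only through that second mutant library. has2 and has3 had at most 0.585 FPKM. Of enzymes for other sulfated sugars, chst10 and b3gat2 act on the HNK-1 epitope and chst6 on keratan sulfate in the human cornea. chst10 was at 7.80, 8.60 and 10.1 FPKM against 6.33 and 6.91, lower in both mutants, and the log2 difference stood at -0.36 (SE 0.35, limma adjusted p = 0.560). b3gat2 was at 5.21, 5.06 and 4.56 FPKM against 3.32 and 0, and chst6 at 10.6, 5.34 and 5.57 against 5.83 and 0.

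The 24 members under the filter comprised 4 transporters and 20 enzymes. Apart from ndst3, their highest value in any library was 1.03 FPKM, and 3 of them, b3galt6, hs3st2 and chst2b, had no read at all. Another 26 genes lack a symbol but have a description that matches these enzymes, the transporters or core proteins, and 7 of them passed the filter. The most abundant, described as the heparan sulfate core protein of basement membranes, was at 709.7, 745 and 820.2 FPKM against 758 and 382. The 10 described as carbohydrate sulfotransferase 12 did not exceed 0.802 FPKM, while the 1 described as carbohydrate sulfotransferase 11 had 2.57, 3.51 and 3.12 FPKM against 2.02 and 0.980.

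Among other genes of the pathway, from lists chosen with earlier results of these data known, none passed the test. Proteoglycan core proteins were tested for 27 genes, with 21 lower, a median log2 difference of -0.47 and both mutants below every wild-type library for 14 (51.9%). Over all tested genes 65.9% were lower, the median was -0.31 and 26.0% lay below in both mutants. aspn, a small leucine-rich proteoglycan, was at 96.2, 130.4 and 96.9 FPKM against 57.5 and 44.4, and the log2 difference stood at -1.06 (SE 0.25, limma adjusted p = 0.399). fmoda, fibromodulin, was at 27.5, 36.7 and 41.7 FPKM against 20.9 and 9.67, and prelp, a related matrix protein, at 9.34, 13.7 and 9.08 against 4.61 and 3.23. bgnb, a biglycan, had the highest wild-type mean of the core proteins listed by symbol, at 142, 182 and 146 FPKM against 141 and 125. acanb, an aggrecan copy that is also one of the chondrocyte markers, was at 5.98, 5.66 and 5.87 FPKM against 2.13 and 3.02.

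Partners in sugar nucleotide synthesis and the Golgi had 22 tested genes, 17 of them lower (77.3%, beside 65.9% of all tested genes), with a median of -0.46 beside -0.31. gale, the epimerase that interconverts UDP-glucose and UDP-galactose and their N-acetyl forms, went the other way at 34.4, 40.9 and 33.5 FPKM against 128.9 and 60.3. Both mutants lay above every wild-type library, and the log2 difference was 1.26 (SE 0.34, limma adjusted p = 0.399). gfpt1 was likewise higher in both, at 5.93, 10.6 and 12.5 FPKM against 13.6 and 24.5. Both mutants thus lay above for 2 of these 22 genes (9.09%, beside 8.33% of all tested genes). They lay below for 6 (27.3%, beside 26.0%). gpia, the glycolytic enzyme phosphoglucose isomerase, was at 183, 195 and 227 FPKM against 169.9 and 105. cant1a, a nucleotidase whose human counterpart is mutated in a skeletal dysplasia, was at 117, 128 and 170.0 FPKM against 118 and 42.0. slc39a8, a metal ion transporter, was at 13.4, 16.0 and 19.9 FPKM against 10.7 and 7.38. Enzymes of chain breakdown had 18 tested genes, 11 of them lower (61.1%, beside the same 65.9%), with a median of -0.09. Their highest member hpse, heparanase, was at 42.5, 36.1 and 48.8 FPKM against 37.1 and 47.5. The lysosomal enzyme gnsa was at 10.2, 12.2 and 10.0 FPKM against 7.77 and 1.86. gusb, likewise lysosomal, was at 24.2, 14.9 and 25.7 FPKM against 19.7 and 2.44, with mutant library 1 inside the wild-type range. hyal4, a hyaluronidase family member, was at 5.53, 7.18 and 7.85 FPKM against 4.86 and 0.0593.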

How the data were processed

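Messenger RNA of 5 libraries was measured. Per the labels' protocols, a Direct-zol column kit gave the RNA and a SMARTER kit for messenger RNA the libraries. Per the submitters' processing notes, the tools included HISAT2 2.0.5 and featureCounts 1.5.0-p3. The sources used here give no build, annotation or strand setting, and overlapping or antisense genes may share reads. The deposited values are FPKM, computed by the authors from the gene lengths in the same table. FPKM times length came in whole steps, which gave reads for 100% of values within 0.02 reads. The depth term implied by the deposited FPKM was 0.980 to 1.23 times these sums, highest for mutant library 2.

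log2(FPKM + 1) was fitted with limma 3.58.1 in R 4.3.3 (trend, no covariate, 3 residual and 4.456 prior degrees of freedom), two-sided, on the 13680 genes that reached 1 FPKM in 2 or more libraries, with Benjamini-Hochberg adjustment over all of them. Such differences understate changes of low genes. Single genes were also compared by exact permutation over 10 splits. The procedure was tested on simulated data, with mutant libraries drawn from wild-type proportions and spread. No simulated library was made to resemble mutant library 2, so the simulation does not show how the procedure handles it. Tables and plots used python 3.11.15, pandas 2.3.3 and matplotlib 3.10.9. Members, lists and the rule for named genes (slc35b1, then per role, subfamily or list the 3 smallest p and the highest wild-type mean, and the 3 highest members with no read in mutant library 2) were chosen with earlier results of these data known; the remaining members were named after their values were seen. A RefSeq gene table matched 0 identifiers and was not used here, and no sequences are printed.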

Additional observations from a re-analysis of the deposited data

How the results depend on the processing

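The results were recomputed under 14 alternatives. Single genes were followed only where the rule for named genes picked them. slc35b1 stayed positive in all 14 alternatives, and leaving out each library in turn gave 1.25 to 1.40. Its adjusted p ranged from 0.00209 to 0.784 over the alternatives, the former without mutant library 1 (1.38). Leaving out libraries, the calls over all genes numbered 0 to 35 for members, 0 to 9 for transporters, 0 to 26 for enzymes with slc26a2 and 1 to 7239 for all genes, with every upper value from the fit without mutant library 1, where the lone sample is assumed to vary like the wild type. At an unadjusted p under 0.05 the transporters numbered 1 to 12 and the enzymes 0 to 32 in those fits.

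With the replicate number as a block, 145 genes were called, among them 1 member, the transporter slc35a3a (lower), and 2 transporters and 0 enzymes had an unadjusted p under 0.05. The numbers are shared by only 2 pairs, whose deviations correlated with r = 0.02 over 13680 genes. Because mutant library 2 lay so far from the others, this r cannot show whether the numbers mark pairs. The main fit used no block. The block turned slc35d2 to 0.0505, slc35e3 to 0.0442 and hpse to 0.10. Wild-type library 3 shares its number with no other library, so the block takes it out of the estimates. These 2 alternatives therefore gave the same log2 differences, such as 1.40 for slc35b1.

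The transporters at an unadjusted p under 0.05 numbered 2 without the mean-variance trend, 3 with array weights and 2 with voom on recovered reads. The enzymes numbered 1 with a pseudocount of 0.1, 2 without the filter, 1 with a minimum of 5 FPKM, 1 after median-of-ratios scaling, 2 after quantile normalization and 0 with array weights. Those weights were 0.279 for each mutant library and 2.07 to 2.56 for wild-type libraries. With 2 mutant libraries, each lies equally far from their mean for every gene, so the design fixes equal weights for them. The weights therefore cannot show whether mutant library 2 differed from mutant library 1. Quantile normalization moved the median of all tested genes from -0.31 to 0.01, that of the transporters to 0.15 and that of the enzymes to 0.0521. It also turned chsy1 (0.0408), ext1a (0.00614), extl3 (0.0329), sulf1 (0.12), slc35d2 (0.21), slc35e4 (0.0220), SLC35F5 (0.0114) and hpse (0.00214). Median-of-ratios scaling turned slc35e3 (0.0405) and hpse (0.10), and voom turned hpse (0.0560).

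Leaving out libraries took the transporter median from -0.26 to 0.05 and the enzyme median from -0.37 to -0.24. Among genes picked by the rule, signs changed in that way for chsy1 (-0.82 to 0.51), chst3b (-0.36 to 0.51), ext2 (-0.56 to 0.68), fam20b (-1.61 to 0.0491), slc35a5 (-0.18 to 0.48), slc35c2 (-0.25 to 0.68), slc35c1 (-0.00206 to 0.36), slc35d2 (-0.38 to 0.0505), slc35e1 (-0.0709 to 1.76), slc35e4 (-1.37 to 0.12), slc35e3 (-0.38 to 0.25), slc35g2b (-2.77 to 0.36) and hpse (-0.18 to 0.17). Of 56 tested genes picked by the rule besides slc35b1, 17 changed sign under at least 1 alternative. Members named outside the rule are not in this count. Some of them also had opposite signs in the mutant libraries, such as ext1c (-0.43 in mutant library 1, 0.96 in mutant library 2) and CHST12 (-0.72 and 0.28). The cause was not tested.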
